A study of Mus musculus with 6 samples.

Results

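The Slc25 family is the set of carrier proteins that move solutes across the inner mitochondrial membrane. Its members were taken by gene symbol, as all array probes whose symbol begins with Slc25a and a number. They were 40 genes with 59 probes, out of 18138 genes with 25697 probes on the array. Of these, 31 genes (44 probes) could be tested, out of 9660 testable genes (12970 probes). The family here means these genes alone. Genes under other symbols, among them the uncoupling proteins Ucp1 and Ucp3 and the carrier relative Mtch1, were counted outside it, with other transport genes.

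The study asked how the human SRY gene, the sex-determining factor of the Y chromosome, acts when it is switched on outside its usual tissue. The hearts came from male pups of the FVB strain (FVB/N in the methods) at postnatal day 6 (P6), with 3 hSRY-ON and 3 hSRY-OFF animals and 1 Illumina MouseRef-8 array per heart. hSRY-ON pups carried a single-copy Signalox-hSRY transgene under the ubiquitous CAG promoter, activated in the early embryo by Cre recombinase that a Ddx4-Cre mother had left in the oocyte, and those used for arrays had been picked to lack the Ddx4-Cre transgene themselves. For the hSRY-OFF hearts the sources differ, since the methods describe mice with the unrecombined transgene and the results describe littermates with Ddx4-Cre alone or with no transgene, so the controls' genotype is uncertain. Because the transgene was active in the whole body, a change in the heart cannot be told apart from a response to events in other organs. Each array had between 47.2% and 51.3% of its probes above background. The dimmest array was that of hSRY-OFF replicate 3, with a mean raw intensity of 631 against 723 to 939 on the others. Of 9 cardiomyocyte marker genes on the array, 8 were above background in every heart.

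The inner mitochondrial membrane is closed to most charged metabolites, and each Slc25 carrier exchanges or cotransports a narrow set of them. In heart muscle, adenine nucleotide carriers export ATP and import ADP, the phosphate carrier supplies ATP synthase, the carnitine carrier admits fatty acids, and a pair of carriers runs the malate-aspartate shuttle that brings reducing equivalents of glycolysis into the matrix. The heart after birth turns from glycolysis to fatty acid oxidation, and its need for these carriers grows with its mitochondria.

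In the hSRY-ON hearts, 5 of the 31 tested carriers were down-regulated and 2 were up-regulated. The down-regulated transcripts included those of the phosphate carrier (Slc25a3), the oxoglutarate-malate carrier (Slc25a11), the S-adenosylmethionine carrier (Slc25a26) and the little-studied Slc25a34, which were 1.97- to 4.33-fold lower. The citrate carrier (Slc25a1) and the branched-chain amino acid carrier (Slc25a44) were 1.56- and 1.57-fold higher. A gene was called when limma gave an adjusted p-value (Benjamini-Hochberg, over all tested probes) under 0.05, and each gene was represented by its brightest tested probe. Values are normalized log2 intensities of 3 hearts per group, a log2 fold change subtracts the hSRY-OFF from the hSRY-ON mean, and it is followed by its standard error (SE). No source states whether the pups of a group came from separate litters.

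Changes were common on these arrays, and the family's counts are read against them. The 7 called carriers were 22.6% of the family, against 28.8% of all tested genes. The 5 lower ones were 16.1%, against 13.9% of all genes called lower, and the 2 higher ones were 6.45%, against 14.9% called higher. Without adjustment, 12 of the 31 carriers had a limma p-value under 0.05, as did 41.4% of all tested genes. The family leaned towards lower values, with 22 log2 fold changes below zero and 9 above, and a median of -0.20 where the median of all tested genes was 0. The lean was smaller under some settings, with a median of -0.09 without hSRY-OFF replicate 3, -0.11 without hSRY-OFF replicate 1 or hSRY-ON replicate 1, and -0.08 without background correction. All hSRY-ON hearts lay on one side of all hSRY-OFF hearts for 13 carriers (10 lower, 3 higher), and the groups were apart in this way for 46.8% of all tested genes. The carriers spanned -2.11 for Slc25a34 to 0.65 for Slc25a44.

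**Figure D1:**
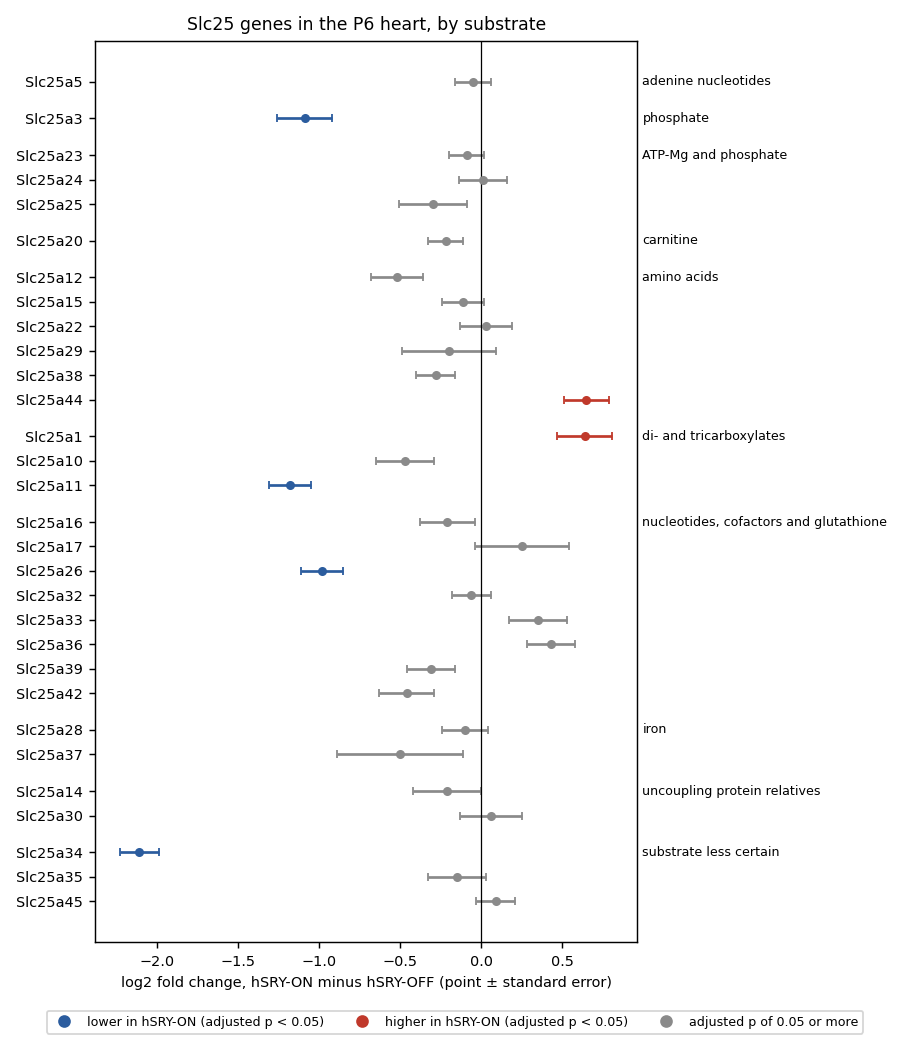
Log2 fold change (hSRY-ON minus hSRY-OFF) of 30 of the 31 tested Slc25 genes in the P6 heart, 3 hearts per group, grouped by substrate, with bars of ± 1 standard error. The genes in blue (adjusted p-value under 0.05, lower) lie between -0.98 and -2.11, and the 2 genes in red (higher) at 0.64 and 0.65.

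The adenine nucleotide carriers exchange matrix ATP for cytosolic ADP, and 1 of the 3 on the array could be tested. Values per heart are given here and below in the order of replicates 1, 2 and 3. Slc25a5 (ANT2, on chromosome X) read 14.06, 14.03 and 14.05 in the hSRY-OFF hearts and 14.00, 14.02 and 13.98 in the hSRY-ON hearts. The groups did not overlap, but the gap between them was small, and the log2 fold change was -0.05 (SE 0.11, adjusted p = 0.777), with a 95% confidence interval of -0.29 to 0.20. The size of this difference depended on the scaling of the arrays, at -0.22 under median scaling, -0.21 under scaling in the manner of TCC and -0.32 without normalization, with adjusted p-values of 0.236, 0.209 and 0.585. Slc25a4 (ANT1), the form known from heart and skeletal muscle, had a single probe that was above background in none of the 6 hearts. That probe read 4.46 to 4.66 on the log2 scale, below the 5.28 to 5.56 at which the dimmest detected probes of the same arrays lay, and so the array gives no account of the main cardiac ADP/ATP carrier. The probes of Slc25a31, the testis form, were likewise above background in no heart.

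Slc25a3 carries phosphate with protons into the matrix, where ATP synthase uses it, and it was down-regulated. Its probe read 12.46, 12.69 and 12.18 in the hSRY-OFF hearts and 11.34, 11.19 and 11.55 in the hSRY-ON hearts. The groups did not overlap, and the level was 2.12-fold lower in hSRY-ON (log2 fold change -1.09, SE 0.17, adjusted p = 0.00334). A second, dimmer probe read 11.34, 11.53 and 10.91 against 9.59, 9.57 and 9.84, a log2 fold change of -1.59 (SE 0.18, adjusted p = 0.00101). Both probes moved the same way, and the dimmer one had the larger change.

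The ATP-Mg and phosphate carriers adjust the total nucleotide pool of the matrix. The 3 tested ones are gated by cytosolic calcium and did not pass the test. Slc25a23 was at -0.09 (SE 0.11), Slc25a24 at 0.01 (SE 0.15) and Slc25a25 at -0.30 (SE 0.21), with adjusted p-values of 0.603, 0.97 and 0.308. Both further probes of Slc25a24 lay higher, at 0.21 and 0.54, also without passing. The probe at 0.54 was above background in only 1 hSRY-OFF heart. Slc25a41 was not above background in any heart.

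Slc25a20 exchanges acylcarnitines for free carnitine and is the entry point of long-chain fatty acids into the matrix. It read 13.09, 13.03 and 13.05 in the hSRY-OFF hearts and 12.81, 12.80 and 12.88 in the hSRY-ON hearts. Every hSRY-ON heart was below every hSRY-OFF heart, but the difference was small (log2 fold change -0.22, SE 0.11, interval -0.48 to 0.03) and did not pass the test (adjusted p = 0.161). It passed in 1 of 17 alternatives, the fit with an intensity trend (adjusted p = 0.0356). A second probe read 10.35, 10.17 and 10.36 against 9.89, 9.87 and 10.08 and gave -0.35 (SE 0.12, adjusted p = 0.0748). The enzymes that work on either side of this carrier had larger differences. Cpt1b, which makes acylcarnitine on the outer membrane of muscle mitochondria, read 12.08, 12.14 and 11.50 in hSRY-OFF and 10.19, 10.38 and 10.66 in hSRY-ON hearts and was down-regulated 2.83-fold (log2 fold change -1.50, SE 0.21, adjusted p = 0.00203). Cpt2, which turns acylcarnitine back into acyl-CoA in the matrix, was down-regulated 2.21-fold (adjusted p = 0.000629), and Crat, the carnitine acetyltransferase, 2.72-fold (adjusted p = 0.000316). The plasma membrane carnitine carrier Slc22a5 was at -0.24 (SE 0.11) and did not pass (adjusted p = 0.142). Whether the carrier and the enzymes differed from each other in their change was not tested.

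**Figure D2:**
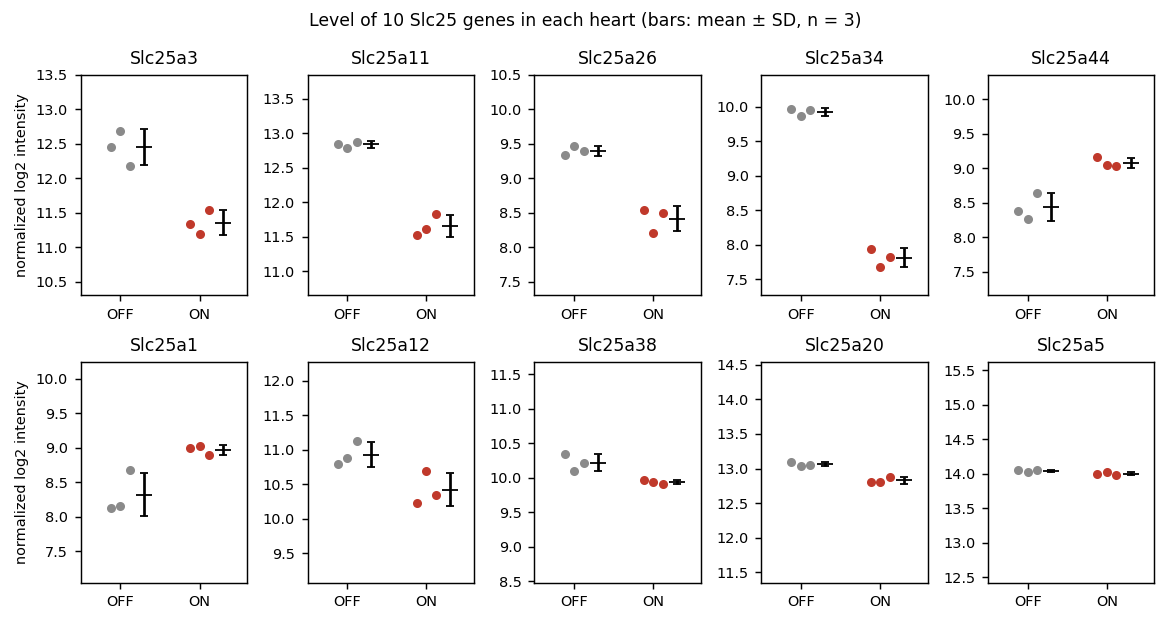
Normalized log2 intensity of 10 Slc25 genes in each heart (grey, hSRY-OFF; red, hSRY-ON), with the mean ± SD of 3 hearts beside the points. Every panel spans the same number of log2 units around its own level, so the distance between groups can be compared across panels, and Slc25a34 shows the widest separation while Slc25a5 shows almost none after quantile normalization.

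The 8 amino acid carriers on the array gave 6 tested genes, of which 1 was up-regulated, none was down-regulated and 5 did not pass, with a median of -0.16. The share called higher was 16.7%, against 14.9% of all tested genes. In limma, 3 of the 6 had an unadjusted p-value under 0.05, against 41.4% of all tested genes. Slc25a44 imports branched-chain amino acids for oxidation in the matrix. It read 8.39, 8.27 and 8.65 in the hSRY-OFF hearts and 9.17, 9.05 and 9.04 in the hSRY-ON hearts. All hSRY-ON hearts were higher, by 1.57-fold (log2 fold change 0.65, SE 0.14, adjusted p = 0.0116). This gene lies at chr3:88410494-88425141 (GRCm38.p6).

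Slc25a12 (aralar) exports aspartate in return for glutamate and works with Slc25a11 in the malate-aspartate shuttle. It read 10.79, 10.88 and 11.13 in the hSRY-OFF hearts and 10.23, 10.69 and 10.34 in the hSRY-ON hearts. The groups did not overlap, with a log2 fold change of -0.52 (SE 0.16), and the adjusted p-value of 0.0508 lay just above the threshold. It passed under 7 of the 17 other settings tried, with adjusted p-values from 0.0167 to 0.179 over all of them. Its paralog Slc25a13 (citrin) was above background in no heart.

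The other tested amino acid carriers did not pass the test. Slc25a38, which moves glycine for heme synthesis, read 10.35, 10.10 and 10.21 against 9.97, 9.94 and 9.91. Its log2 fold change was -0.28 (SE 0.12, adjusted p = 0.112), and its other probes gave -0.31 and -0.55. The groups did not overlap for any of these probes. Slc25a15, the ornithine carrier, read 8.65, 8.36 and 8.57 against 8.42, 8.31 and 8.52. Its groups overlapped (-0.11, SE 0.13, adjusted p = 0.582). Slc25a22, a glutamate carrier, read 5.92, 5.59 and 6.0 against 5.84, 6.06 and 5.69, and gave 0.03 (SE 0.16, adjusted p = 0.918). Slc25a29, which carries basic amino acids, read 6.40, 6.02 and 5.84 against 5.82, 5.35 and 6.48. Its hearts were the most scattered of this group (-0.20, SE 0.29, adjusted p = 0.633). Slc25a22 and Slc25a29 lay near the 5.28 to 5.56 of the dimmest detected probes, where changes are compressed. The second glutamate carrier, Slc25a18, was above background on 1 hSRY-OFF array only.

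The carriers of di- and tricarboxylates moved in both directions. Slc25a11 exchanges oxoglutarate for malate and is the partner of aralar in the shuttle. It read 12.85, 12.78 and 12.88 in the hSRY-OFF hearts and 11.53, 11.61 and 11.83 in the hSRY-ON hearts, and was down-regulated 2.27-fold (log2 fold change -1.18, SE 0.13, adjusted p = 0.000801). Both dimmer probes were also called, at -1.16 (adjusted p = 0.0113) and -1.33 (adjusted p = 0.00416). Slc25a1 exports citrate, from which the cytosol makes acetyl-CoA for lipid synthesis. It read 8.13, 8.16 and 8.68 in the hSRY-OFF hearts and 9.0, 9.02 and 8.89 in the hSRY-ON hearts. The hSRY-ON hearts were close together and all higher, by 1.56-fold (log2 fold change 0.64, SE 0.17, adjusted p = 0.0274). It lies at chr16:17925211-17928219. Its other probe read 6.26, 6.71 and 6.89 against 6.97, 7.23 and 6.92 and did not pass (0.42, adjusted p = 0.129). The call of Slc25a1 was lost without any 1 of 5 of the hearts, all but hSRY-OFF replicate 3, with log2 fold changes between 0.55 and 0.82 over the 6 fits. Slc25a10, the dicarboxylate carrier, was at -0.47 (SE 0.18, adjusted p = 0.0931), and of 17 alternatives it passed only in the fit that left out hSRY-ON replicate 3. Slc25a21, which carries oxoadipate, was above background in no heart.

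Of 9 tested carriers of nucleotides, cofactors and glutathione, 7 did not pass the test, and the median was -0.21. The called share was 22.2%, against 28.8% of all tested genes. Slc25a26 brings in S-adenosylmethionine, the methyl donor for mitochondrial RNA, protein and cofactor methylation. It read 9.33, 9.46 and 9.39 in the hSRY-OFF hearts and 8.54, 8.20 and 8.49 in the hSRY-ON hearts, and was 1.97-fold lower (log2 fold change -0.98, SE 0.13, adjusted p = 0.00192). The gene lies at chr6:94500295-94604659.

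The remaining cofactor carriers spread around zero. Slc25a36 and Slc25a33, which carry pyrimidine nucleotides, were at 0.43 (SE 0.15, adjusted p = 0.0731) and 0.35 (SE 0.18, adjusted p = 0.197). The coenzyme A carriers Slc25a42 and Slc25a16 were at -0.46 (SE 0.17, adjusted p = 0.0866) and -0.21 (SE 0.17, adjusted p = 0.396). Slc25a39, a glutathione carrier, was at -0.31 (SE 0.15, adjusted p = 0.159), and its paralog Slc25a40 was above background in no heart. Slc25a17, which is a peroxisomal carrier, was at 0.25 (SE 0.29), and Slc25a32, the folate and FAD carrier, at -0.06 (SE 0.12). The second probe of Slc25a32 was above background in all hSRY-ON hearts and in no hSRY-OFF heart, and did not pass (adjusted p = 0.0842). It was testable only through the hSRY-ON hearts, so its bound of 1.14-fold higher in hSRY-ON is no separate support.

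Neither mitoferrin, the carriers that bring iron to heme and iron-sulfur cluster synthesis, passed the test. Slc25a28 (mitoferrin 2) was at -0.10 (SE 0.14, adjusted p = 0.642). Slc25a37 (mitoferrin 1), which is abundant in red cell precursors, read 10.09, 9.57 and 11.08 in the hSRY-OFF hearts and 10.25, 9.65 and 9.35 in the hSRY-ON hearts. It had the largest SE of the family as taken here (-0.50, SE 0.39, adjusted p = 0.375). Without hSRY-OFF replicate 3 its log2 fold change was -0.08. Of 5 tested red cell markers 1 was lower (Hbb-b1), against 13.9% of all tested genes, and Epb4.2 was above background in no heart. The summed intensity of the red cell markers ranged from 49000 to 61200 with hSRY off and from 50800 to 55400 with hSRY on. This sum is carried by the alpha globin Hba-a1, which read 15.49 in 5 of 6 hearts, and the median log2 fold change of the tested markers was -0.50. Alas2, which starts heme synthesis in red cell precursors, read 12.63, 12.17 and 13.54 in the hSRY-OFF hearts and 12.82, 12.09 and 11.93 in the hSRY-ON hearts, and the anion exchanger Slc4a1 read 10.65, 9.90 and 11.56 against 10.91, 9.64 and 9.73. Like Slc25a37, both were highest in hSRY-OFF replicate 3. The part of red cell precursors in the mitoferrin values was not tested.

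Of the members grouped as relatives of the uncoupling proteins, Slc25a14 was at -0.21 (SE 0.21) and Slc25a30 at 0.06 (SE 0.19). Slc25a27 was above background on 2 hSRY-OFF arrays with 1 of its probes and on no hSRY-ON array, and was not tested. Among carriers of less certain substrate, Slc25a35 was at -0.15 (SE 0.18) and Slc25a45 at 0.09 (SE 0.12), and Slc25a46, a protein of the outer membrane, was above background in no heart.

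Slc25a34 had the largest change of the family as taken here by symbol. It belongs to a branch of the family close to a yeast oxaloacetate carrier, and its substrate in mammals is not settled. It read 9.97, 9.86 and 9.95 in the hSRY-OFF hearts and 7.94, 7.67 and 7.82 in the hSRY-ON hearts. The closest hearts of the groups were almost as far apart as the means, and the level was 4.33-fold lower in hSRY-ON (log2 fold change -2.11, SE 0.12, adjusted p = 6.51e-05, interval -2.40 to -1.83). A dimmer probe read 6.39, 5.78 and 5.81 against 5.0, 5.02 and 5.17. It was above background in all hSRY-OFF and no hSRY-ON hearts, and the change it shows is therefore a bound, at least 1.59-fold lower (adjusted p = 0.00868). This dimmer probe passed the detection filter only through the hSRY-OFF hearts, so its call is no separate support. For such a probe, the dim arrays took the value of their faintest detected probe, or the probe's own where that was higher, on the background-corrected scale.

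The promoters of Slc25a34, Slc25a11 and Slc25a3 are shown because these carriers fell the most by their brightest probes. They were chosen after the values were seen, as were the motifs, and the sequences come from RefSeq (GRCm38.p6), from 250 bases before to 50 after an annotated start site, 5′ to 3′ along the gene. Capitals mark matches on either strand to AAGGTCA, a nuclear receptor half-site, and to GGCGGG, a GC box.
Slc25a34, chr4:141623785-141624084, minus strand: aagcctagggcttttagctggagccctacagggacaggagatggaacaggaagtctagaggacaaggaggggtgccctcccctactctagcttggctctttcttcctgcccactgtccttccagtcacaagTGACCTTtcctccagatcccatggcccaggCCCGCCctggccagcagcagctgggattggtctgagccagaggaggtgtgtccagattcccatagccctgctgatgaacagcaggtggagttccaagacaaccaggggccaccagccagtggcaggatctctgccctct
Slc25a11, chr11:70646990-70647289, minus strand: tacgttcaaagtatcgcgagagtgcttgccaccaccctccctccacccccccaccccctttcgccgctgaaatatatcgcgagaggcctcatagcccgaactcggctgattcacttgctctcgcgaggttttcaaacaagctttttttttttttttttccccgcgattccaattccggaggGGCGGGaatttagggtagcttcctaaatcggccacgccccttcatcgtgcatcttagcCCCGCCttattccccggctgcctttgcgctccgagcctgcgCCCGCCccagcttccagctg
Slc25a3, chr10:91123918-91124217, minus strand: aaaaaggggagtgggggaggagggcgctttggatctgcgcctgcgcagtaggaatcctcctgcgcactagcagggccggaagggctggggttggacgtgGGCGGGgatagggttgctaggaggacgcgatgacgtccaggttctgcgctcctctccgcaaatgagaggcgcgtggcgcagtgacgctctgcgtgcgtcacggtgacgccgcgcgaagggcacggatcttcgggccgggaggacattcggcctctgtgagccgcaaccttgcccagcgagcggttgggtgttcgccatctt

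Counting the start site as position 0, the Slc25a34 promoter held AAGGTCA at -119 and a GC box at -89. The Slc25a11 promoter held GC boxes at -69, -11 and 30, and the Slc25a3 promoter held 1 at -151. GC content was 59% for Slc25a34, 57% for Slc25a11 and 65.7% for Slc25a3. Of the 31 tested carriers, 25 had a promoter in the table. A GC box was found in 22 of them (88%), against 37.9% of 27025 genes with a promoter. The 25 carriers were all tested in the heart, while the 27025 genes were taken whether tested or not. All motif shares given here thus compare unlike sets. AAGGTCA was found in the promoter of Slc25a34 alone (4% of the carriers), against 5.38% of all genes. AACAAT, the core to which SRY and SOX proteins bind, was found in 0 of the 25, against 12.2% of all genes, and GCATGCGC, an NRF1 core, in 0 against 3.05%. These are matches of letters in a short window and say nothing about binding.

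Where a carrier had several probes, they rarely received different calls. Several probes were tested for 10 genes. In 4 of these all probes were called in the same direction, in 5 no probe was called, in Slc25a1 the brightest was called and the other was not, and no gene had probes called in both directions. Among the 4 is Slc25a34, whose dimmer probe was testable only through the hSRY-OFF hearts.

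**Figure D3:**
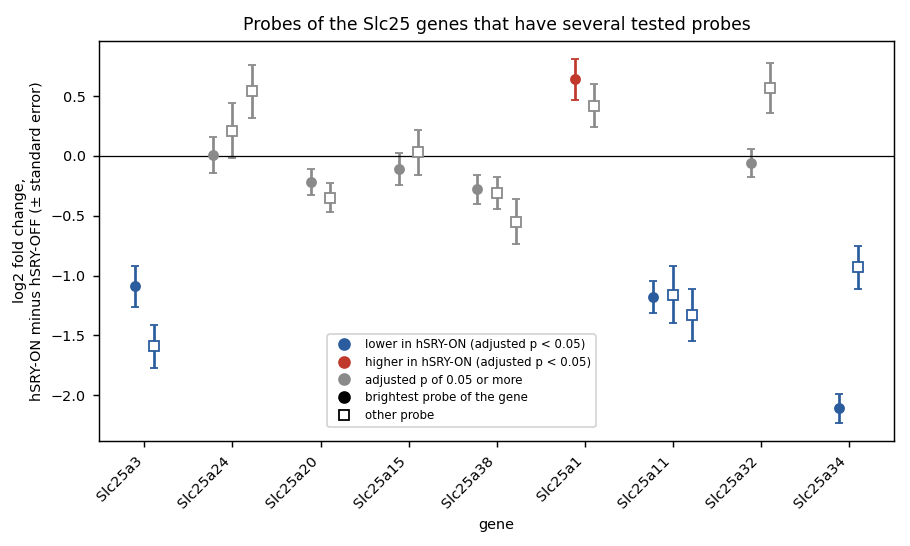
Log2 fold change (hSRY-ON minus hSRY-OFF, ± 1 standard error) of each tested probe of 9 Slc25 genes with several tested probes, filled circles for the brightest probe and open squares for the others. All probes of Slc25a3, Slc25a11 and Slc25a34 lie below zero and are called lower, and those of Slc25a32 lie on both sides of zero without being called. The dimmer probe of Slc25a34 passed the detection filter through the hSRY-OFF hearts alone, and that of Slc25a32 through the hSRY-ON hearts alone.

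Paralogs were compared within each array, as the difference of their log2 values, with a two-sided exact permutation test over the 6 hearts. Of 12 pairs planned, 7 could be tested. Slc25a10 and Slc25a11 were, by their brightest probes, the only pair whose groups did not overlap, with Slc25a10 minus Slc25a11 higher by 0.71 (1.64-fold) in hSRY-ON. Its exact p of 0.1 is the smallest that 3 against 3 hearts allow, and its adjusted value was 0.7, so the design cannot show such a difference at the usual threshold. The other 6 pairs differed by -0.09 to 0.40, with overlapping groups. These 6 included the mitoferrins (Slc25a28 minus Slc25a37, 0.40), the pyrimidine nucleotide carriers (Slc25a33 minus Slc25a36, -0.08) and the coenzyme A carriers (Slc25a16 minus Slc25a42, 0.26). With the mean of all tested probes of a gene, Slc25a23 minus Slc25a24 was -0.34 and Slc25a24 minus Slc25a25 was 0.56. Each had an exact p of 0.1. By the brightest probes they were -0.09 and 0.31, and the means include a Slc25a24 probe above background in only 1 hSRY-OFF heart. No pair of the adenine nucleotide or aspartate-glutamate carriers could be compared, since 1 partner of each was not detected.

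A list of other genes related to transport across the mitochondrial membranes gives a setting for the family. It also holds the enzymes Cpt1b, Cpt2 and Crat and the plasma membrane carrier Slc22a5, which are not carriers of these membranes. Of 31 listed, 24 were tested, 3 (Ucp2, Mcart6 and Cpt1a) were too dim and 4 were not found under these symbols. Of those tested, 10 were down-regulated, 3 up-regulated and 11 did not pass, with a median of -0.22. The called share was 54.2%, against 28.8% of all tested genes. The share called lower was 41.7%, against 13.9%, and the share called higher was 12.5%, against 14.9%. Besides Cpt1b, Cpt2 and Crat, the lower genes were Mpc2, a subunit of the pyruvate carrier (log2 fold change -1.24, SE 0.13, adjusted p = 0.000801), the uncoupling protein Ucp3 (-1.26, SE 0.24, adjusted p = 0.00817), the sideroflexin Sfxn4 (-1.15), the permeability transition regulator Ppif (-0.94), the transporter Abcb8 (-0.71), the cation exchanger Letm1 (-0.58) and the outer membrane channel Vdac1 (-0.51, SE 0.11, adjusted p = 0.0132). Vdac2 (-0.20) and Vdac3 (-0.11) did not pass, and neither did the calcium uniporter Mcu (0.32). Letm1 and Vdac1 lost their calls without hSRY-OFF replicate 1 and without normalization between arrays, Letm1 also without hSRY-ON replicate 1, and Abcb8 without normalization between arrays. The other 7 lower genes were called in all 17 alternatives.

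The higher genes included Mtch1 (0.50, SE 0.12, adjusted p = 0.0224), an outer membrane relative of the carriers, and Ucp1, the uncoupling protein of brown fat. Ucp1 read 4.64, 5.03 and 8.88 in the hSRY-OFF hearts and 10.81, 8.80 and 9.94 in the hSRY-ON hearts. It was above background in 1 hSRY-OFF heart, replicate 3, whose value lay above that of hSRY-ON replicate 2, so the groups overlapped (log2 fold change 3.67, SE 1.07, adjusted p = 0.0395). Mtch1 and Ucp1 lost their calls without hSRY-OFF replicate 1, hSRY-OFF replicate 2, hSRY-ON replicate 1 or hSRY-ON replicate 2, and Ucp1 also without hSRY-ON replicate 3. Mtch1 was also not called under median scaling, scaling in the manner of TCC, the replicate block or no normalization, and Ucp1 was not called without a filter on dim probes and not tested when detection on all arrays was required. Of 6 fat cell markers, Plin and Lep were above background in no heart. Of 3 tested, 1 was higher, against 14.9% of all tested genes. It was Adipoq (1.48, adjusted p = 0.0265), which was above background in 2 hSRY-OFF hearts. Cfd (1.26, adjusted p = 0.0818) and Cidea (-1.05, adjusted p = 0.0691) did not pass. The median log2 fold change of the tested ones was 1.26. However, the summed intensity of the markers ranged from 1860 to 2160 with hSRY off and from 654 to 1860 with hSRY on. This sum is carried by Cidea, the brightest of the markers. The part of fat cells in the Ucp1 values was not tested.

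**Figure D4:**
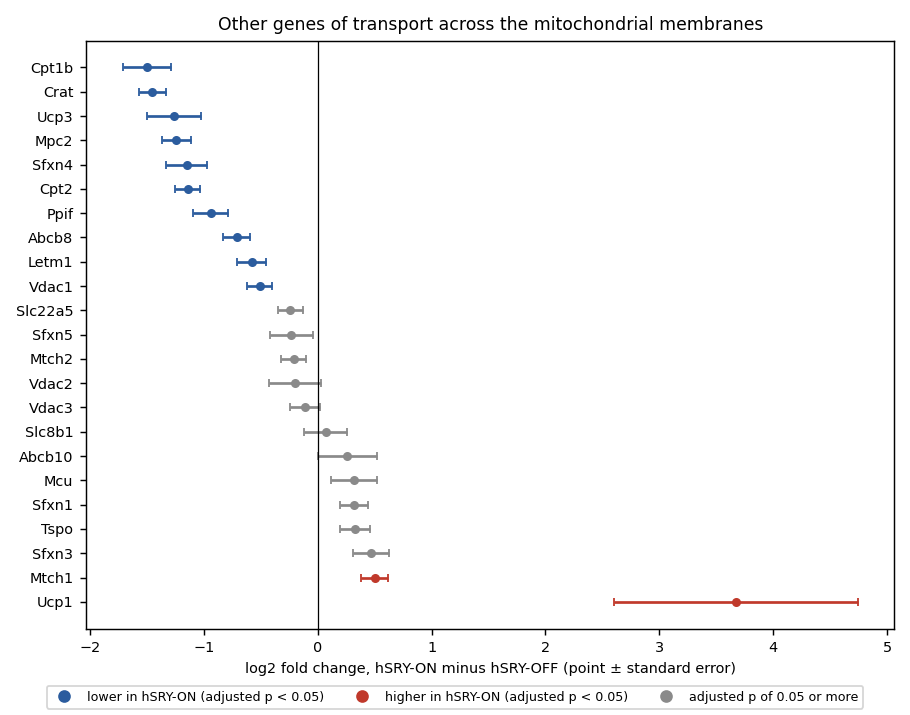
Log2 fold change (hSRY-ON minus hSRY-OFF, ± 1 standard error, 3 hearts per group) of 23 of the 24 other tested genes listed for transport across the mitochondrial membranes. The list includes enzymes and Slc22a5. The 10 genes in blue lie between -0.51 and -1.50, Mtch1 in red at 0.50, and Ucp1 stands apart at 3.67 with a standard error of 1.07.

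The arrays measured RNA of the whole organ, in which fewer cells of a type and less RNA per cell cannot be told apart. The marker counts that follow stand against 13.9% of all tested genes called lower and 14.9% called higher. Of 9 cardiomyocyte markers tested, 5 were lower, the direction of the lower carriers, and none was higher in hSRY-ON. The others, Actc1 (-0.20), Ttn (-0.21), Myl2 (-0.02) and Myl3 (-0.03), did not pass. The median log2 fold change of the 9 was -0.51, and none was undetected in all hearts. They had a summed intensity of 150000 to 164000 against 173000 to 184000 in hSRY-OFF. The markers of smooth muscle and pericytes summed to 39800 to 43600 against 27100 to 32600, with 2 of 5 tested higher but a median log2 fold change of -0.42, opposite in sign to the sum, and Cnn1 was above background in no heart. Those of macrophages summed to 6430 to 7390 against 2870 to 3970, with 4 of 7 tested higher. The endothelial markers (24000 to 25500 against 23300 to 24700, with 2 of 7 tested lower and 2 higher, and Kdr undetected) and the fibroblast markers (28700 to 32100 against 31400 to 33700, with 1 of 7 higher) overlapped between the groups. The hepatocyte markers summed to 1400 to 3010 against 247 to 297, and Alb and Serpina1a were above background in no heart. Both tested genes were higher, but Ttr was above background in no hSRY-OFF heart and was testable only through the hSRY-ON hearts. The part of any of these cell types in the carrier values was not tested.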

How the data were processed

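Arrays of 3 hSRY-ON and 3 hSRY-OFF P6 hearts were grouped by their labels. The authors deposited bead intensities without normalization, on a linear scale, and a detection p-value per probe against the array's negative controls. The bead software is not given in the sources used here, and the methods name the R package TCC for normalization and testing, without settings. With R 4.3.3 and limma 3.58.1, neqc corrected the background (controls inferred from the detection p-values), then put the arrays on a common distribution by quantiles, and log2 was taken of the deposited intensities so corrected, with an offset of 16 that compresses changes of dim probes. Probes with a detection p-value under 0.05 on at least 3 of 6 arrays were fitted with lmFit and eBayes, group as the only term, two-sided, with Benjamini-Hochberg adjustment across every tested probe. The steps were tested on simulated data. No pair of arrays held identical values (0 pairs), and the number of arrays limits the precision. Probe sequences were not used here, so signal from near-identical gene copies cannot be told apart.

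The members and gene lists were chosen with earlier results of these data known, and so support nothing by themselves. The values of 1 carrier and of 1 other transport gene are not reported here, although both stay in the counts and medians. Every other tested member was named. Values per heart were given for the ADP/ATP, phosphate, carnitine and amino acid carriers, and for called members of other groups whose groups did not overlap and whose log2 fold change was at least 0.5 in size. Other values per heart, and the named genes outside the family, were chosen after values were seen. All 40 symbols matched RefSeq. Alternatives were other background corrections and normalizations, other detection filters, an intensity trend, the mean of a gene's probes, the replicate number as a block, and each heart left out. Python 3.11.15 with matplotlib 3.10.9 drew the plots.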

Additional observations from a re-analysis of the deposited data

How the results depend on the processing

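The 5 lower calls, among them Slc25a3, Slc25a11, Slc25a26 and Slc25a34, held in all 17 alternatives. Slc25a44 lost its call only without normalization between arrays, which also moved the median of all genes to -0.11, the share of calls that were lower from 48.3% to 59.7%, and the genes called from 2778 to 1464. There, no carrier was called higher (0 genes), the family's median was -0.32, and 1 other transport gene was called higher. Without background correction, 8 carriers were lower (Slc25a12, Slc25a38 and Slc25a42 added), the median was -0.08, and 5 other transport genes were higher. With an intensity trend, 7 carriers were lower (Slc25a20 and Slc25a12 added) and 3 higher (Slc25a36 added). The median was -0.10 with normexp and an offset of 50 and -0.13 with no filter on dim probes. With the replicate number as a block, 1 carrier stayed higher (Slc25a44), Slc25a1 lost its call, and no other carrier's call changed. The deviations of same-numbered hearts correlated at -0.02, 0.04 and -0.07, which shows no shared effect but cannot settle whether the numbers pair hearts. Paralog pairs were not run with the block, and a slide block was not run because the column names give no slide. Without normalization the uncalled Slc25a22 (-0.07), Slc25a24 (-0.12), Slc25a30 (-0.06) and Slc25a45 (-0.03) changed sign. So did Slc25a24 under median scaling (-0.02) and under scaling in the manner of TCC (-0.01), and Slc25a32 by the mean of its probes (0.25). The mean for Slc25a32 includes its probe that was above background in no hSRY-OFF heart. Leaving out each heart gave 1 to 3 carriers higher, 0 to 4 other transport genes higher, and family medians of -0.20 to -0.09, with the value nearest zero without hSRY-OFF replicate 3 and -0.11 without hSRY-OFF replicate 1 or hSRY-ON replicate 1. Slc25a12 was called without hSRY-ON replicate 2, Slc25a10 without hSRY-ON replicate 3, and Slc25a36 without hSRY-OFF replicate 3. Uncalled genes that changed sign ranged over -0.08 to 0.14 (Slc25a24), -0.09 to 0.11 (Slc25a22), -0.08 to 0.48 (Slc25a17), -0.17 to 0.00 (Slc25a28), -0.30 to 0.03 (Slc25a35), -0.50 to 0.06 (Slc25a29) and -0.14 to 0.22 (Slc25a30), and Slc25a23 minus Slc25a24 over -0.27 to 0.03. The cause was not tested for any of these. Signal over background limits the 9 untested carriers, Slc25a4 among them.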
